A study of Mus musculus with 7 samples.

Results

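The potassium channel genes were taken as the protein-coding genes of mouse build mm10 whose symbol starts with Kcn. The RefSeq table held 94 of them among 21627 protein-coding genes, counting autosomes and X. Both peak lists were searched for peaks that reached either end of a gene extended by 1 kb, and a gene with such a peak is called marked. Genes were chosen by symbol and peaks by position, so the counts of marked members are a description. The prefix also covers proteins that form no pore: 17 of the 94 genes encode accessory subunits or regulators.

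Potassium channels let potassium leave or enter the cell and set its resting potential. Voltage-gated channels shape action potentials, inward rectifiers and tandem-pore channels carry the background conductance, and other channels open with intracellular calcium or sodium. Most of these genes are known from neurons, glia, muscle and transporting epithelia. Trimethylation of lysine 27 of histone H3 (H3K27me3) is laid down by Polycomb repressive complex 2 and is found at silent genes of other lineages. Polycomb repressive complex 1, whose catalytic subunits are Ring1a and Ring1b, ubiquitinates histone H2A at many of the same places.

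H3K27me3 was profiled by chromatin immunoprecipitation and sequencing in basal epidermal cells of mice at postnatal day 0, sorted from back skin as EpCAM+, Sca1+ and alpha6-integrin-high. The groups used were control cells and cells of genotype Ring1a/b 2KO, which lack Ring1a and Ring1b, with 2 labelled libraries and 1 peak list each. The titles of the 2KO libraries name H3K27me1, while their antibody field and their peak list name H3K27me3, and the list was read as the latter. Libraries of Eed cKO cells and of input were left out, and what drives the deletion or whether animals were pooled is not given in the sources used here.

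Control cells had 3631 listed peaks and 2KO cells 2340. They carry positions only, so read depth is unknown, replicate error cannot be given, and no test between genotypes was possible. The intervals given with shares are 95% Wilson intervals, for counting error alone. None of the 9 epidermal progenitor markers examined (Krt5, Krt14, Krt15, Itga6, Itgb4, Col17a1, Trp63, Epcam and Ly6a) was marked in either list. Of 31 markers of Merkel cells, melanocytes, Schwann cells and neurons, fibroblasts, endothelium and immune cells, 18 were marked in control and 13 in 2KO cells. The 13 are not a subset of the 18. The immune genes Cd207 (32.96 kb) and Cd3g (10.43 kb) had a peak in the 2KO list only. The background shares over 21627 genes were 10.1% (control list) and 6.64% (2KO list), so an absence among only 9 progenitor markers is a weak contrast. Fewer cells with the mark and less mark per cell cannot be told apart in such lists.

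Many potassium channel genes had called H3K27me3 in control cells. Of 94 members, 44 were marked in the control list (46.8%, 37.1 to 56.8), against 10.1% of all protein-coding genes. In the 2KO list 27 were marked (28.7%, 20.6 to 38.6), against 6.64%. Both lists marked 25 members (background 5.59%), the control list alone marked 19 (4.49%) and the 2KO list alone marked 2 (1.04%), which leaves 48 with no peak at a gene end. Of the control-marked members 56.8% (42.2 to 70.3) were also marked in 2KO cells, a share near the 55.5% of all control-marked genes. Of the 27 members marked in 2KO cells 25 were marked in control cells, against 84.3% of all genes marked there. With equal numbers of the widest peaks of each list, 12 members were marked in the control list only (background 2.76%) and 6 in the 2KO list only (background 1.94%). This sets the 2340 widest control peaks against the whole 2KO list, so the first count could only fall and the second only rise. The members added to the 2KO-only class have a narrower control peak that was left out.

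The subfamilies, given by the fourth letter of the symbol, hold few marked genes each. Both lists marked 6 of 7 control-marked Kcnk genes (85.7%, 48.7 to 97.4) and 5 of 6 control-marked Kcnj genes (83.3%, 43.65 to 97.0). Kcnj9 and Kcnj10 among these 5 count the same 2KO peak, which the interval ignores. Of 7 control-marked genes under the letter a, 2 were also marked in 2KO cells (28.6%, 8.22 to 64.1). Of 4 control-marked Kcng genes it was 1 (25.0%, 4.56 to 69.9). These intervals overlap, and each holds the 55.5% of all control-marked genes. No member of Kcne, Kcni, Kcnn, Kcnr, Kcnt or Kcnu was marked at a gene end in either list.

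**Figure D1:**
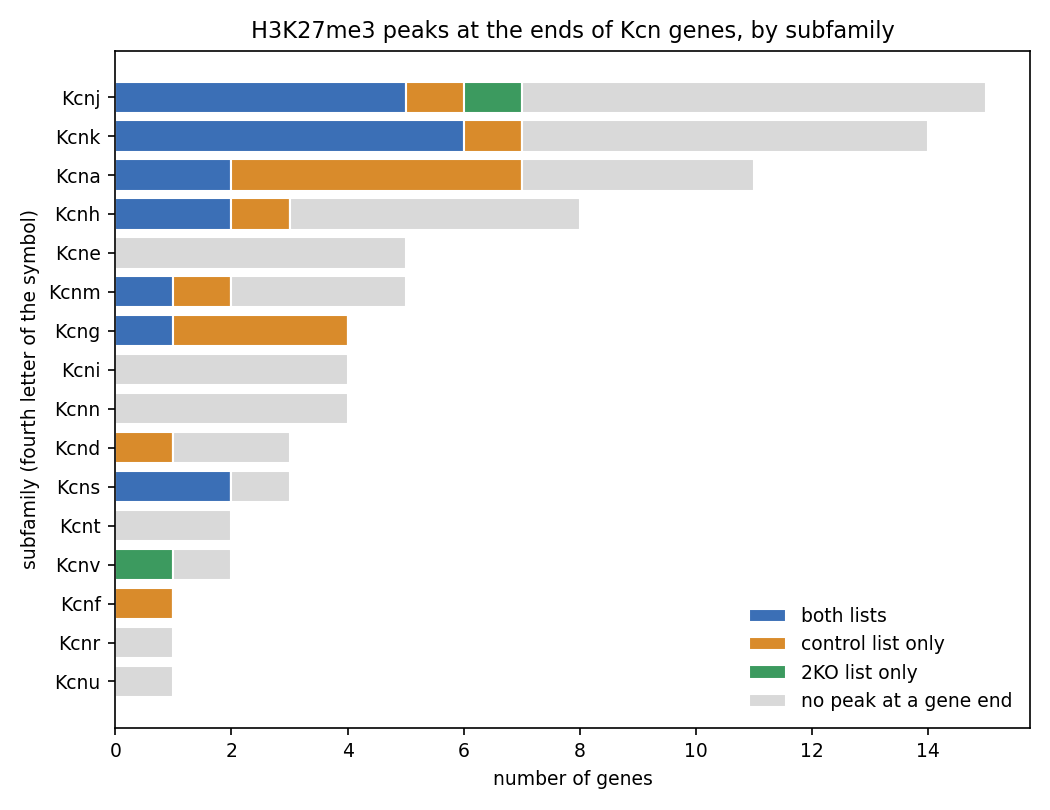
Number of Kcn genes (horizontal axis) in 16 subfamilies (vertical axis) with an H3K27me3 peak within 1 kb of a gene end, split into genes of both lists, of control alone, of 2KO alone and of neither. Of the 7 control-marked Kcnk genes 6 lie in the class of both lists, and 5 of the 7 control-marked genes of letter a lie in the control-only class. The intervals of the shares also marked in 2KO cells overlap (48.7 to 97.4% for Kcnk, 8.22 to 64.1% for letter a).

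The promoters of 4 members show the sequence at the start of a gene of each class. They come from RefSeq promoter entries on GRCm38.p6 (mm10), and 69 of the 94 members had an entry there. Kcnk13 had the widest control domain among members marked in both lists, Kcnd3 the widest among those of the control list only and Kcnj6 the wider peak of the 2KO-only pair. Kcnd2 is a paralog of Kcnd3 without a peak. Each run gives the 250 bases before the start site, 5' to 3', with CpG dinucleotides in capitals.
Kcnk13, chr12:99964249-99964498, plus strand: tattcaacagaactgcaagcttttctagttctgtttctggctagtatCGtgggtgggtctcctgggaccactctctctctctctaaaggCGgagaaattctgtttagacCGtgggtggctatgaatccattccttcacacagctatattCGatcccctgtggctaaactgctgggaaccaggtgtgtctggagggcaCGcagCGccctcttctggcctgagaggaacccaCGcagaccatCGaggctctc
Kcnd3, chr3:105451640-105451889, plus strand: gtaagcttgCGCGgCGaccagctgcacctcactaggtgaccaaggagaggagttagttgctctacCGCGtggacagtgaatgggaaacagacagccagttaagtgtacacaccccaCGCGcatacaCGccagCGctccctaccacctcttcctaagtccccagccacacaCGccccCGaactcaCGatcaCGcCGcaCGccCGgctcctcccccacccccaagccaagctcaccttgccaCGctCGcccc
Kcnj6, chr16:94997697-94997946, minus strand: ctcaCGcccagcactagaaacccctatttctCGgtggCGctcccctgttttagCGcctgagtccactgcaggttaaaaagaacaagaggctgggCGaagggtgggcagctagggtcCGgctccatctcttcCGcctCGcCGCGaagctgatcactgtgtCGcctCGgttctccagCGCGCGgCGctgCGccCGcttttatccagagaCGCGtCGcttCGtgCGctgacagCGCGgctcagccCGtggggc
Kcnd2, chr6:21215096-21215345, plus strand: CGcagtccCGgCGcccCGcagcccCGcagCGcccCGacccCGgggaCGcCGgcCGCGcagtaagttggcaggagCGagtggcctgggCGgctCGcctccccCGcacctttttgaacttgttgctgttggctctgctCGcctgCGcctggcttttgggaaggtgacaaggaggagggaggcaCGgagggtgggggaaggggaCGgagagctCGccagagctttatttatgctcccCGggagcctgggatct
The Kcnk13 run lay wholly under a peak of each list, the Kcnd3 run under the control peak only, the Kcnj6 run under the 2KO peak only and the Kcnd2 run under neither. These runs hold 8, 18, 26 and 22 CpG dinucleotides in that order. The Kcnk13 run, marked in both lists, is the poorest in CpG of the 4, and the unmarked Kcnd2 run is richer in CpG than the marked Kcnd3 run. The Kcnk13 run lies inside the annotated gene, as its listed start site is 1.35 kb from the gene end. The start sites used for Kcnd3, Kcnj6 and Kcnd2 lie at the gene end, so the Kcnk13 run is from an unlike place. Another Kcnj6 start site in the table, inside the gene, lay under no peak.

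Among voltage-gated pore-forming genes (Kcna without the Kcnab genes, Kcnb, Kcnc, Kcnd, Kcnh and Kcnq), 21 of 30 were marked in control cells (70.0%, 52.1 to 83.3) and 9 of these also in 2KO cells (42.9%, 24.5 to 63.4). The Shaker-type Kcna genes, which encode channels of axons, muscle and lymphocytes, accounted for 6 of these 21. Kcna6 alone of the 6 was marked in 2KO cells. Its peak measured 7.13 kb in control (chromosome 6, 126737611 to 126744739) and 7.43 kb in 2KO cells (126737149 to 126744577), so the called domain over its start hardly differed. Kcna1, a channel gene of myelinated axons in the same chromosome 6 cluster, had an 8.54 kb control peak (126639713 to 126648255) and no 2KO peak within 53349 bp. Kcna5, an atrial channel gene of this cluster, had a 2.21 kb control peak (126533231 to 126535441) inside its short gene body and no 2KO peak.

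Kcna3, the channel gene of T lymphocytes, had a control peak of 6.95 kb, Kcna7, a muscle gene, one of 2.80 kb and Kcna4 one of 1.37 kb, all without a 2KO peak. Kcna4 had the narrowest control peak of the marked members. With equal numbers of the widest peaks, 3 genes of letter a stayed marked in control cells in place of 7. Kcna10, expressed in hair cells of the inner ear, had no peak in either list. Kcna2, another axonal gene, was unmarked at its ends but carried a peak inside the gene, described further on.

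The Kcnc genes encode the channels of fast-spiking neurons. Kcnc2 had a control peak of 8.84 kb (chromosome 10, 112266186 to 112275026) and a 2KO peak of 9.57 kb (112266157 to 112275728), and Kcnc1 had peaks of 6.02 and 5.42 kb. At Kcnc4 30.4% of the 9.77 kb control peak (chromosome 3, 107453055 to 107462827) lay under 2KO peaks. The 2KO peak there, 6.71 kb (107459859 to 107466565), lay mostly outside the gene towards Slc6a17 and did not cover the start site of the promoter table. Kcnc4 therefore counted as marked in both lists although most of its control domain was not called in 2KO cells.

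Kcnb2, a delayed rectifier of central neurons, had a control peak of 3.22 kb (chromosome 1, 15286196 to 15289410) and no 2KO peak. Of the Kcnd genes, which carry the transient outward current of heart and neurons, Kcnd3 had a 10.7 kb control peak (chromosome 3, 105445933 to 105456652) with no 2KO peak within 489883 bp. Kcnd1 and Kcnd2 had no peak.

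Of the ether-a-go-go-type Kcnh genes, 3 of 8 were marked in control cells. Kcnh5 had a 6.97 kb control peak (chromosome 12, 75174139 to 75181103) that lay wholly under a wider, 10.3 kb 2KO peak (75172228 to 75182512), and Kcnh8 had peaks of 2.51 and 2.85 kb. Kcnh3, a forebrain gene, had an 8.54 kb control peak (chromosome 15, 99219388 to 99227924). It counted as control only, yet 48.1% of this peak lay under a 2KO peak that stopped 1024 bp from the gene end. Kcnh2, the gene of the rapid cardiac delayed rectifier, had no peak, and neither had Kcnh1, Kcnh4, Kcnh6 or Kcnh7.

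Of the Kcnq genes, Kcnq3, which encodes a subunit of the neuronal M-current channel, had a 4.27 kb control peak of which 39.5% was covered, and a 2.27 kb 2KO peak that began 699 bp inside the gene end. The 2KO mark of Kcnq3 thus rests on the window, since its peak does not touch the gene end itself. Kcnq1, which works in heart and in secretory epithelia and lies in an imprinted region, had a 7.98 kb control peak (chromosome 7, 143101525 to 143109500) and no 2KO peak within 375388 bp. Kcnq5 had a control peak of 2.31 kb without a counterpart.

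The Kcnf, Kcng, Kcns and Kcnv genes encode silent modifiers, which do not form channels alone and assemble with Kcnb subunits. Of these 10 genes 7 had a control peak, and 3 of the 7 a 2KO peak as well. Kcng2 had peaks at both ends, together 13.5 kb in the control list (chromosome 18, 80295043 to 80298800 and 80360593 to 80370339) and 16.1 kb in the 2KO list (80294455 to 80298312 and 80356704 to 80368964). Kcng3 had a control peak of 9.97 kb (chromosome 17, 83625809 to 83635781), Kcng4 one of 6.42 kb and Kcng1 one of 5.85 kb, and none of these had a 2KO peak. Kcng1, Kcng3 and Kcng4 thus lay in the same class as Kcnb2.

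Kcns1, a gene of sensory neurons, had peaks of 9.88 kb (chromosome 2, 164165584 to 164175464) and 8.66 kb (164165510 to 164174172), and Kcns2 of 2.41 kb (chromosome 15, 34837167 to 34839579) and 3.55 kb (34837199 to 34840746). The control peak of Kcns1 also reached the window of Wfdc5. Kcnf1 had a 2.11 kb control peak (chromosome 12, 17174848 to 17176958), and the nearest 2KO peak was 3912571 bp away. Kcns3 and Kcnv2 had no peak.

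Kcnv1, a silent modifier of brain, had no control peak and a 2KO peak of 2.55 kb (chromosome 15, 45113278 to 45115829) that began 83 bp inside the gene, and the nearest control peak was 307124 bp away. The other member of this class was Kcnj6, which encodes a G protein-gated inward rectifier of neurons. Its 2.81 kb 2KO peak (chromosome 16, 94995816 to 94998622) covered the start site, and the nearest control peak was 583010 bp away. Both peaks were narrower than the median 2KO peak at gene ends, 6.44 kb.

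Inward rectifiers (Kcnj) were marked in control cells at 6 of 15 genes (40.0%, 19.8 to 64.3). The G protein-gated gene Kcnj9 and the glial gene Kcnj10 are neighbours that point away from each other. In control cells each had its own peak, of 8.39 kb (chromosome 1, 172325669 to 172334055) and 4.99 kb (172337394 to 172342386). In 2KO cells 1 peak of 16.2 kb (172326228 to 172342418) spanned both starts and the gap between them, so both genes count the same peak. Kcnj5, the cardiac G protein-gated subunit, had peaks of 7.18 kb (chromosome 9, 32340433 to 32347616) and 6.81 kb (32340885 to 32347693). Kcnj8, the pore of the ATP-sensitive channel of vascular smooth muscle and pericytes, had peaks of 6.42 and 7.17 kb, and Kcnj12, of heart and skeletal muscle, of 6.28 and 6.14 kb. At Kcnj5, Kcnj8 and Kcnj12 the called domain differed little between the lists.

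Kcnj4, a strong inward rectifier of brain and heart, was the 1 Kcnj gene of the control list only. Its 10.7 kb peak (chromosome 15, 79500948 to 79511606) began 905 bp inside the annotated gene end and covered the start site of the promoter table. No peak at a gene end was called for Kcnj1, Kcnj2, Kcnj3, Kcnj11, Kcnj13, Kcnj14, Kcnj15 or Kcnj16. Kcnj11, the pore of the ATP-sensitive channel of pancreatic beta cells, thus differed in class from its paralog Kcnj8.

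Tandem-pore channels (Kcnk), which carry potassium leak currents, were marked in control cells at 7 of 14 genes (50.0%, 26.8 to 73.2), and 6 of the 7 were also marked in 2KO cells. Kcnk13 and Kcnk12 encode the halothane-inhibited pair. Kcnk13 had a 13.7 kb control peak (chromosome 12, 99959502 to 99973206) and a 12.8 kb 2KO peak (99959948 to 99972718). Kcnk12 had a peak at each end, together 11.5 kb in the control list (chromosome 17, 87744003 to 87747907 and 87792664 to 87800215) and 14.6 kb in the 2KO list (87742536 to 87748376 and 87791698 to 87800474). Its control peaks lay wholly under 2KO peaks. Kcnk10, a mechanosensitive channel gene, had peaks of 8.42 kb (chromosome 12, 98571946 to 98580365) and 11.0 kb (98569940 to 98580934).

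The acid-sensitive channel genes Kcnk3 and Kcnk9 had control peaks of 4.47 and 5.86 kb and 2KO peaks of 5.61 and 7.09 kb, and their relative Kcnk15 of 4.19 and 7.07 kb. These control peaks at the ends of the 3 genes lay wholly under 2KO peaks. Kcnk3 had a further control peak of 3.28 kb inside the gene (chromosome 5, 30620556 to 30623833), outside the window, with no base under a 2KO peak. Kcnk1, a weak inward rectifier of this family, had a 3.59 kb control peak and no 2KO peak. Kcnk2 and Kcnk4, the mechanosensitive paralogs of Kcnk10, had no peak, and neither had Kcnk5, Kcnk6, Kcnk7, Kcnk16 or Kcnk18.

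Taking the Kcnj and Kcnk genes as 1 group, 11 of 13 control-marked genes were also marked in 2KO cells (84.6%, 57.8 to 95.7). Kcnj9 and Kcnj10 among the 11 count the same 2KO peak, which the interval ignores. For the voltage-gated pores and silent modifiers together, 12 of 28 control-marked genes were also marked in 2KO cells (42.9%, 26.5 to 60.9). The intervals overlap, and this grouping was made after the values were seen. The median control width was 6.42 kb in the former and 6.58 kb in the latter. When equal numbers of the widest peaks of each list were compared, the counts were 11 of 12 and 10 of 20. Without the Kcna genes, 8 of 15 control-marked voltage-gated pore genes were also marked in 2KO cells (53.3%, 30.1 to 75.2).

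Genes of channels opened by intracellular ions were marked in control cells at 1 of 8 members (12.5%, 2.24 to 47.1), near the 10.1% of all genes. This was Kcnma1, the large-conductance calcium-activated channel, with a peak of 6.02 kb (chromosome 14, 24001197 to 24007218) in control cells alone. The small-conductance genes Kcnn1, Kcnn2 and Kcnn3, their intermediate-conductance relative Kcnn4, the sodium-activated Kcnt1 and Kcnt2 and the sperm gene Kcnu1 had none at a gene end. The nearness to all genes holds for gene ends only. Kcnn1, Kcnn2, Kcnn4 and Kcnt1 had control peaks inside the gene, described further on. Counted over the gene body with 1 kb, the control list marked 11.7% of all genes.

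Accessory genes were marked in control cells at 2 of 17 members (11.8%, 3.29 to 34.3), near the 10.1% of all genes, compared with 42 of the other 77 (54.5%, 43.5 to 65.2). Kcnab1, a cytosolic subunit of Kcna channels, had a control peak of 2.98 kb and one of 5.75 kb in 2KO cells. Kcnmb2, which inactivates Kcnma1 channels, had a 2.19 kb peak in control (chromosome 3, 31901889 to 31904074) and a 4.24 kb peak in 2KO cells (31900293 to 31904533). In both genes the 2KO peak covered the control peak in full. The 5 Kcne genes, the 4 Kcnip genes, whose products bind calcium and Kcnd channels, Kcnab2, Kcnab3, Kcnmb1, Kcnmb3, Kcnmb4 and Kcnrg had no peak at a gene end. Kcnip1 and Kcnip4 had control peaks over inner start sites, described further on, so the nearness to all genes holds for gene ends only.

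**Figure D2:**
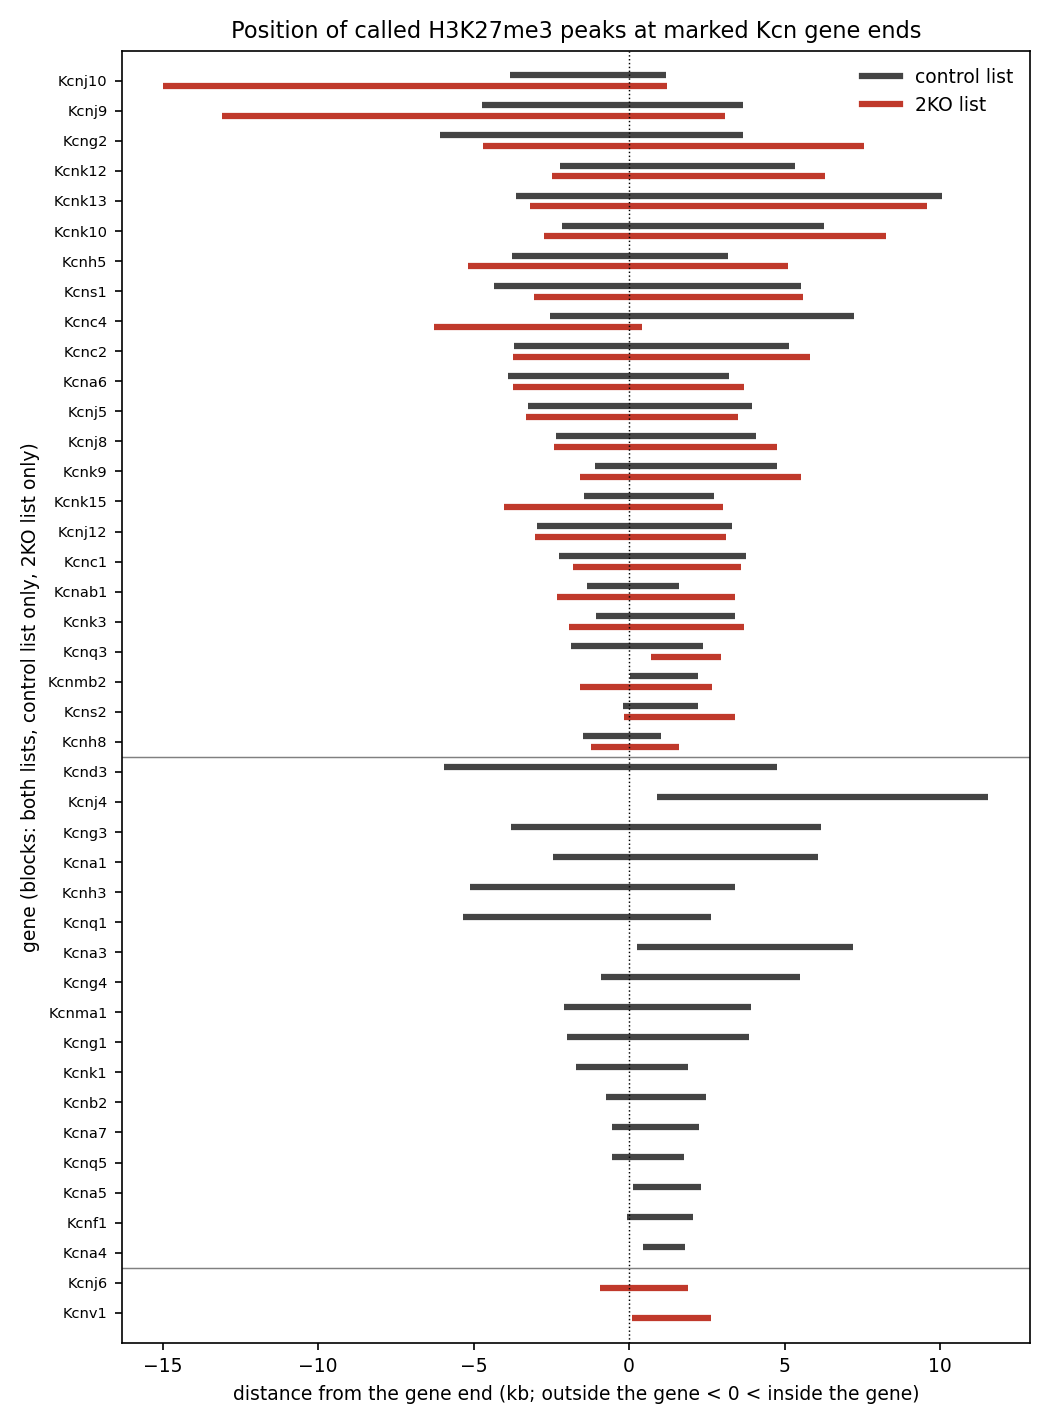
Called peaks of the control and 2KO lists (horizontal bars) at 42 of the 46 marked Kcn genes, as distance in kb from the marked gene end, positive into the gene. The horizontal lines separate 23 genes of both lists, 17 of the control list only and the 2 of the 2KO list only. For genes with peaks at both ends the end with the widest peak is drawn, and only peaks that reach the 1 kb window are shown, so the 2KO peak beside Kcnh3 is not.

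Members marked in both lists were chosen for having a peak of each list at a gene end. In most of them the larger part of the control domain lay under 2KO peaks. In 21 of these 25 genes at least 90% of the control bases lay under 2KO peaks, with 13 covered entirely. Kcns1 and Kcng2 were covered to 86.9 and 86.2%, and Kcnq3 and Kcnc4 to 39.5 and 30.4%. Over all 28 control peaks of these members 90.8% of bases were covered, beside 78.7% for all genes of this class. The widest control peak measured 13.7 kb at these members and 131.3 kb over all genes of this class. The 19 control-only members were chosen for having no 2KO peak at a gene end, and the control peak of 1 of them, Kcnh3, met a 2KO peak (5.26% of 19 peaks, beside 7.36% of 924 peaks of this class). In 18 of the 19 genes the nearest 2KO peak was more than 20 kb from the gene ends.

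Called width at members of both lists was larger in 2KO cells in 18 of 25 genes (72.0%), beside 682 of 1210 genes of this class in all (56.4%). The difference between these shares was not tested, and Kcnj9 and Kcnj10 among the 18 count the same 2KO peak. The median ratio of 2KO to control width was 1.21 (quartiles of the log2 ratio -0.03 and 0.56), beside 1.055 for all (quartiles -0.36 and 0.47). These quartile ranges overlap. The highest ratios were at Kcnj10 (ratio 3.24) and Kcnj9 (1.93), which share the joined 2KO peak, and at Kcnmb2 (1.94) and Kcnab1 (1.93). The lowest ratios were 0.53 at Kcnq3, 0.69 at Kcnc4 and 0.88 at Kcns1. Width is the extent that the authors' caller joined, and it says nothing of the height of the signal.

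**Figure D3:**
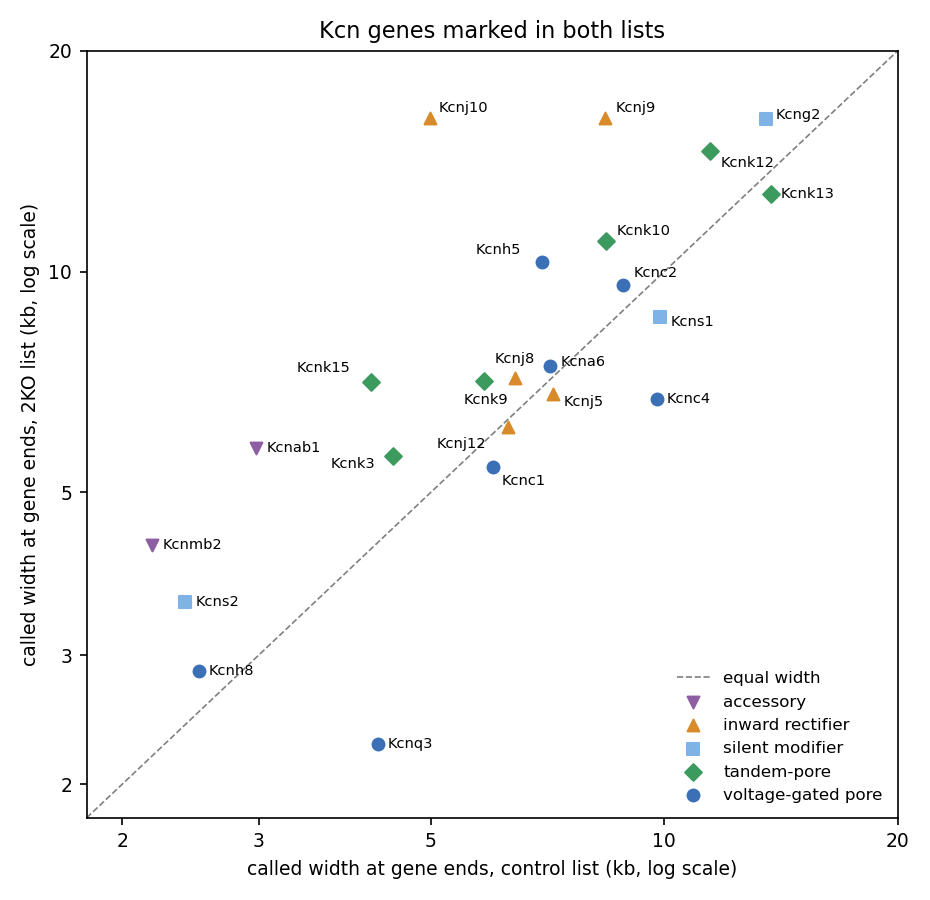
Called H3K27me3 width at the gene ends of 23 Kcn genes marked in both lists, control list (horizontal, kb, log scale) against 2KO list (vertical, kb, log scale), by role of the product. Of these 23 genes 16 lie above the dashed line of equal width, with Kcnj10 farthest above and Kcnq3 farthest below it.

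The control peaks of members were of middling width. The 47 control peaks ranged from 1.37 to 13.7 kb, with a median of 6.02 kb (quartiles 3.67 and 8.18), beside 5.45 kb (3.57 and 8.54) and a maximum of 131.3 kb for all 2010 control peaks at gene ends. Over the 47 peaks 29 met a 2KO peak (61.7%, 47.4 to 74.2), beside 56.5% of the 2010. The median control peak was 5.94 kb at members of both lists and 6.02 kb at members of the control list only, whereas over all genes the medians of the peaks of these classes were 6.39 and 4.43 kb. Under 4 kb, 8 of 15 control peaks at members met a 2KO peak (53.3%, 30.1 to 75.2), beside 34.3% (30.6 to 38.1) of all gene-end peaks of that width. From 4 to 8 kb it was 13 of 20 (65.0%, 43.3 to 81.9) beside 58.1% (54.8 to 61.4), and at 8 kb or more 8 of 12 (66.7%, 39.1 to 86.2) beside 78.8% (75.2 to 82.0). The share thus went from 34.3 to 78.8% with width over all gene-end peaks and from 53.3 to 66.7% over those of members. In each width class the interval of the members held the share of all gene-end peaks.

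**Figure D4:**
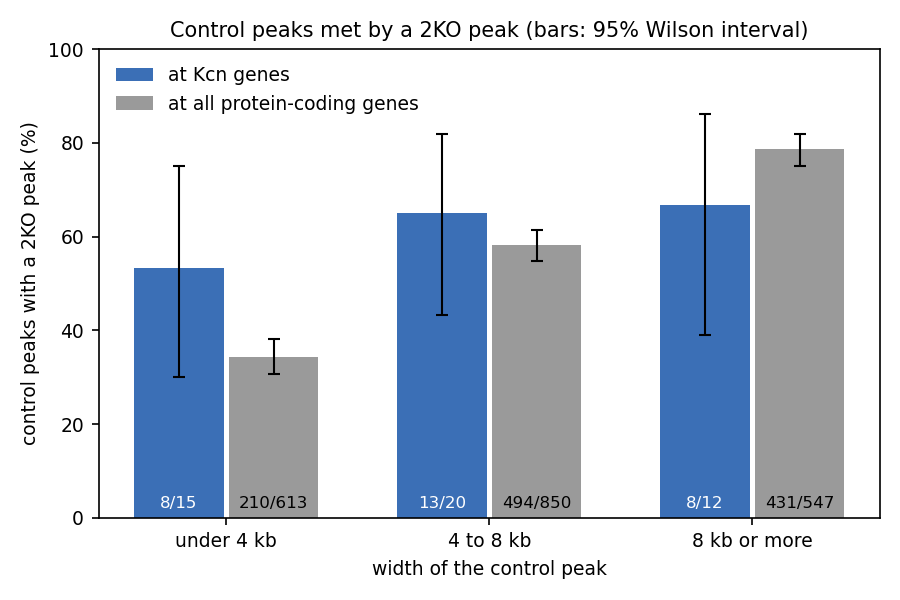
Share of control peaks that meet a 2KO peak (vertical axis, %) in 3 classes of control peak width (horizontal axis), for peaks at Kcn gene ends and at the ends of all protein-coding genes. Counts stand inside the bars, and lines give 95% Wilson intervals. Peaks at Kcn genes go from 53.3 to 66.7%, and all gene-end peaks from 34.3 to 78.8%.

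Where the promoter table gave a strand, most peaks lay at the start of the gene. Of 30 control-marked members with a strand in the promoter table, 26 had a start site of the table under a control peak, and in 2KO cells it was 17 of 19. Kcnk12 was the 1 of these genes with a separate peak at its far end. The same shares over all marked genes were not computed, so the position is not shown to be particular to the members. For members without a strand, start and far end could not be told apart, and Kcng2 among them had peaks at both ends in each list. At Kcna3, Kcna4 and Kcna5 the control peak began 114 to 432 bp inside the gene, within 1 kb of the start site. For Kcnj12 the table lists a start site deep inside the gene that no peak reached, and its peaks lay at the outer end. At the edge of the 1 kb window, the control peak of Kcnj4 (905 bp), the 2KO peak of Kcnq3 (699 bp) and a control peak of Kcng2 (499 bp) were the farthest from the gene end among those counted. Among members with no counted peak of the list concerned, the 2KO peak of Kcnh3 (1024 bp), the control peak of Kcnn1 (2126 bp) and the 2KO peak of Kcnmb3 (3074 bp) were the nearest. The inner control peak of Kcnk3, which also has a counted one, lay 1.44 kb from a gene end.

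Start sites inside the annotated gene also carried peaks that the window at gene ends misses. Of 48 members without a peak at either end, 38 had a promoter entry. In 5 of these 38 a start site of the table lay under a control peak inside the gene. Kcna2, 10.7 kb inside, had a control peak of 7.54 kb (chromosome 3, 107098065 to 107105603) and a 2KO peak of 9.09 kb (107097247 to 107106332). Kcnip4, a partner of Kcnd channels, had an inner start under peaks of 1.41 and 2.60 kb. The inner starts of Kcnip1 (3.61 kb) and of Kcnn1 (1.53 kb) and that of Kcnj3 (4.21 kb, chromosome 2, 55434140 to 55438347), a G protein-gated gene of heart and brain, lay under control peaks with no 2KO peak. Kcnab1 had an inner start under peaks of 4.59 and 4.85 kb besides its outer ones. Counted by start sites of the table alone, the control list marked 34 of 69 members (beside 9.07% of all genes with an entry), 19 of which had a 2KO peak too (55.9%), beside 54.2% of all control-marked genes counted that way.

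CpG dinucleotides were counted in the 300 bases around the start of members with a promoter entry, whereas the classes were set at gene ends. The 2 places can differ: 5 unmarked members had a start site under a control peak, and no peak reached the start site of Kcnj12. The median CpG count was 13.5 in the 18 members of both lists, beside 19 over all genes of this class. It was 20 in 12 members of the control list only, beside 22, and 12 in 38 unmarked members, beside 14. Kcnj6, the 1 member of the 2KO list only with an entry, had 30, beside a median of 13. Ranges overlapped widely, from 4 to 41 in both lists, 3 to 49 in the control list only and 0 to 48 in unmarked members. The control-only members Kcnf1 and Kcna7 had 3 and 4, and the unmarked Kcnmb4, Kcnk2 and Kcns3 had 48, 33 and 32. CAGCACC and GGACAG, letters from the element bound by the neuronal gene repressor REST, were searched on both strands and counted separately. CAGCACC was found in 10 of 69 members (14.5%), beside 8.4% of 17273 genes with an entry, and GGACAG in 25 (36.2%), beside 25.3%. GGACAG was present in 3 of 18 members of both lists (30.5% of all genes of this class), in 7 of 12 of the control list only (32.2%) and in 15 of 38 unmarked members (24.6%). CAGCACC was present in 1 of 18, 2 of 12 and 6 of 38 in the same order (10.6, 8.43 and 8.25% of all genes). A match of such short motifs is a description of letters and not a site.

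Of 10 further genes (9 auxiliary genes of these channels outside the Kcn symbols, and Rest), Lrrc38, a gamma subunit of Kcnma1 channels, was marked in both lists (5.91 and 6.75 kb) and Dpp6, a partner of Kcnd channels, in the control list only (1.78 kb). Dpp10, Abcc8, Abcc9, Amigo1, Lrrc26, Lrrc52 and Lrrc55 had no peak, nor had Rest itself. Abcc9, whose product joins that of its neighbour Kcnj8, thus differed from it in class.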

How the data were processed

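The authors deposited 1 list of H3K27me3 peaks per genotype with positions in bp and no other value, signal or score, per the file headers. The submitters' processing notes name Bowtie2 2.3.3.1, SAMtools 1.9 and the build mm10. Whether the 2 libraries per genotype were pooled, which program called peaks and at what threshold is not given in the sources used here, so a gene without a called peak is not a gene without the mark. Positions are printed 1-based, with the lists' starts taken as 0-based.

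Genes came from a RefSeq table of GRCm38.p6 without strand, and start sites and promoters (250 bases before to 50 after the start) from a RefSeq promoter table. A gene was marked when a peak shared at least 1 bp with a gene end extended by 1 kb. For genes with several promoters the highest CpG count was taken. The software was Python 3.11.15 (pandas 2.3.3, numpy 2.4.6) for overlaps, scipy 1.17.1 for intervals and matplotlib 3.10.9 for figures. The code was tested on simulated peaks placed at 800 genes, and all 800 classes were recovered. Genes simulated as marked in both lists had the same peak in each. The test thus checks the code for the window and does not cover partly overlapping peaks or peaks shared by neighbouring genes. The members, lists and tests were chosen with earlier results of these data known. Results for 4 marked members are not reported singly here, and these members stay in the counts. Named were the other marked members, with positions for the 15 at the widest control peaks, the 2 widest of each subfamily and the 2KO-only class.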

Additional observations from a re-analysis of the deposited data

How the results depend on the processing

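No paired analysis was possible because the peaks of a genotype are given as 1 list, which also means that leaving out a library could not be tried. Of 75 recomputed counts and shares over all members, 70 stayed within 1.5 times the count or within the interval of the share. For the others the cause was not tested, except where fewer genes or fewer control peaks enter. With equal numbers of the widest peaks, members of the control list only numbered 12 in place of 19 and those of the 2KO list only 6 in place of 2. That setting shortens the control list alone, so these counts could move in no other direction. Among the 69 members with a promoter entry, an alternative chosen after seeing the data, these counts were 12 and 1 at either gene end, and counted at start sites the 2KO list alone marked 1. Fewer genes enter these last counts. The share of control-marked members also marked in 2KO cells stayed between 55.8 and 63.6% over all alternatives, including the classes by any overlapping peak (59.1%) and the set without the Kcna and Kcnab genes (62.2%), both chosen after seeing the data. Of 114 subfamily counts 13 moved by more than 1.5 times, 9 of them with equal numbers of the widest peaks. Depth is unknown and limits what a missing peak can show.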

Other observations

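Peaks inside members, away from their ends and from start sites of the promoter table, were called mainly in genes of ion-activated channels. Kcnt1, a sodium-activated channel gene of neurons without a promoter entry, had a 4.42 kb control peak (chromosome 2, 25874638 to 25879056) wholly under a 5.64 kb 2KO peak (25874204 to 25879842). Kcnn2 had an inner control peak of 2.79 kb and an inner 2KO peak of 4.41 kb. Kcnn4 had a 1.22 kb control peak without a counterpart, and Kcnmb3 a 1.37 kb 2KO peak (chromosome 3, 32498449 to 32499822) without one. With the whole gene body extended by 1 kb as the target, the control list marked 52 of 94 members (beside 11.7% of all genes), 29 of which had a 2KO peak too (55.8%, beside 56.9% of all control-marked genes counted that way).

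Of 4 non-coding genes with Kcn symbols, Kcnd3os (chromosome 3, 105448190 to 105452955), which overlaps the start of Kcnd3, lay wholly under the control peak of Kcnd3 and under no 2KO peak. Kcnq1ot1 (chromosome 7, 143213111 to 143296547), the imprinted antisense RNA inside Kcnq1, had no base under a peak of either list, and neither had the other two, Kcnmb4os1 and Kcnmb4os2. The control peak of Kcnq1 lay at the outer end of that gene and did not reach Kcnq1ot1.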
